A study of Homo sapiens with 10 samples.

Results

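The last step of hepatic differentiation, in which Oncostatin M (OSM) is given, was examined by setting the library of day 21 against those of days 9, 11 and 13, so that 4 of the 10 RNA-seq libraries of the course entered the comparison. All cells were H1, an established human embryonic stem cell line, grown without serum. They had passed through 3 days of Activin A (100 ng per ml) and 4 days of BMP2 (20 ng per ml) plus FGF4 (30 ng per ml). The hepatoblast stage followed, with 6 days of HGF together with KGF (20 ng per ml of either) in RPMI with B27 supplement and insulin. Cells received OSM at 20 ng per ml for the last 8 days, in hepatocyte culture medium with the SingleQuots supplements but without EGF. The labels of days 9 and 11 name HGF and KGF. The label of day 13 names OSM, whereas the step lengths of the protocol put day 13 before OSM, on the last day of the preceding step. The cytokine and the medium changed together, and their effects cannot be told apart. Each day had 1 library, so no difference has a replicate check and none was tested.

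OSM is a cytokine of the interleukin 6 family that binds a receptor made of OSMR or LIFR with the shared chain IL6ST (gp130) and acts through JAK kinases and STAT3. In the fetal liver it is made by blood-forming cells, and with glucocorticoids it is known to drive hepatoblasts towards hepatocytes, which secrete most plasma proteins, store and release glucose, make bile and detoxify ammonia. Hepatoblasts divide, express AFP and can form either hepatocytes or bile duct cells (cholangiocytes).

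Genes were compared if the largest of their 4 values was at least 50, which 9250 of 12125 genes met. A gene is said to have risen or fallen where day 21 lay outside the range of days 9, 11 and 13. By this rule a gene that reached 50 at day 21 and on none of days 9, 11 and 13 could only be called risen. A gene below 50 at day 21 could not be called risen. The filter thus partly set the counts and medians of lists that hold such genes. Day 21 was above that range for 3184 genes (34.4%), below it for 3954 (42.7%) and inside it for 2112 (22.8%). The size of a difference is log2(value + 1) at day 21 minus the mean of log2(value + 1) over the 3 earlier days, and a fold is 2 raised to that difference. The added 1 makes folds of low genes too small. A difference of at least 2 (4-fold) was seen for 246 genes that rose (2.66%) and 198 that fell (2.14%). Counts of list members that rose or fell, given further on, are to be read against 34.4% and 42.7%. Counts of members that did so at least 4-fold are to be read against 2.66% and 2.14%. The median difference of all genes was -0.08, and scaling the libraries by the median of ratios moved it to 0.03. The standard deviation among days 9, 11 and 13 had a median of 0.19 over genes. At the lower limit, 99 genes had a largest value of 50 (32 above, 36 below and 31 inside the range) and 59 genes had one of 49 (15 above, 23 below and 21 inside). The deposited values are normalized whole numbers and not read counts, the libraries share almost the same sorted values, and so the depth of a library cannot be read from them. Values of 2164 and above fall into 10 levels shared by the libraries, and the top level of 18734 is held by 10 genes in each library, so that a gene there cannot be seen to rise. In bulk RNA, fewer cells of a type and less RNA per cell cannot be told apart.

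The 4 markers given for this comparison, the hepatocyte genes ALB and AHSG together with SPP1 and ADAM28, were among the genes with the largest rises. ALB encodes albumin, the main protein of blood plasma, and had values of 72, 100 and 168 on days 9, 11 and 13 and 4866 at day 21. AHSG encodes fetuin-A, a plasma protein of hepatocytes, and had values of 124, 135, 518 and 6495 on the same days. Day 21 was above each earlier day of the course for these genes, with folds of 45.2 for ALB and 31.4 for AHSG. The difference of AHSG was 4.97 on the log2 scale, 5.64 without day 13 and 3.65 against day 13 alone, the library whose label and protocol disagree. Both genes were already climbing within the reference days, by 2.05 on the log2 scale from day 9 to day 13 for AHSG. SPP1 encodes osteopontin, a secreted matrix protein made by bile duct cells, macrophages and bone cells. Its values were 50, 39 and 26 on days 9, 11 and 13 and 1896 at day 21, so it was declining before the last step and then stood 49.9-fold higher. ADAM28, a membrane protease of the disintegrin family best known from lymphocytes and epithelia, was listed at 0 on days 9, 11 and 13 and at 114 at day 21. The gene was listed above 0 earlier, where its values on days 0 to 7 lay between 12 and 28. In the plot of these genes by day, ALB and AHSG climb through the reference days, whereas SPP1 and ADAM28 go down before they go up.

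**Figure D1:**
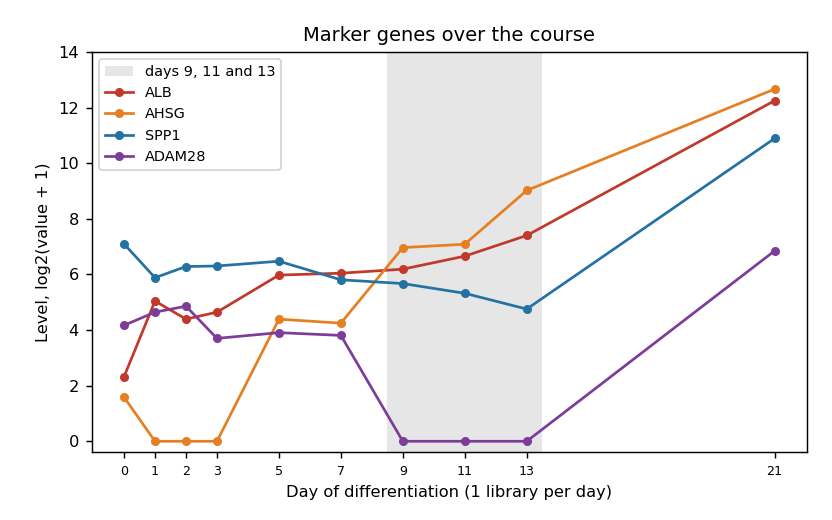
Level of ALB, AHSG, SPP1 and ADAM28, as log2(value + 1), on each of the 10 days, with 1 point per library and the reference days shaded. Day 21 is the highest point of each line, and ADAM28 lies at 0 on days 9, 11 and 13.

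The table places ALB on chromosome 4 from 74262831 to 74275174, SPP1 on chromosome 4 from 88896819 to 88904562 and AHSG on chromosome 3 from 186330712 to 186339107. It names no build, and the submitters' processing notes name hg19 and mm10. The 250 bases before the RefSeq start of 4 genes are shown from GRCh38.p14, 5′ to 3′ on the strand of the gene, because these genes stand for 3 groups described further on, namely secreted genes of the hepatocyte (ALB), genes of cell division (CCNB2, PLK1) and genes of the response to low oxygen (LOX). Positions are counted from the start, with -1 the last base before it. In ALB, capitals mark CCAAT boxes, at -86 to -82 on the printed strand and at -44 to -40 on the other strand, where the letters read ATTGG. In CCNB2 and PLK1, capitals mark TTTGAA, the core of the cell cycle homology region, at -29 to -24 in both, and CCAAT boxes upstream of it. In LOX, whose most upstream RefSeq start is shown, capitals mark ACGTG or its reverse complement CACGT, the core of the element bound by hypoxia-inducible factors. Only the motifs named for a gene are marked in it. ACGTG also occurs, in small letters, in CCNB2 and PLK1, and CCAAT in LOX, so these motifs do not set the printed groups apart.
ALB, chr4:73404037-73404286, plus strand: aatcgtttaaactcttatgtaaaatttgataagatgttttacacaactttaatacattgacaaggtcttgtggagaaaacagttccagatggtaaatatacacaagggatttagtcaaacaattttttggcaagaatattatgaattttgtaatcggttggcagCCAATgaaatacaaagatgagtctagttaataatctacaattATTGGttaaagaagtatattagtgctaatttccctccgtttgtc
CCNB2, chr15:59104896-59105145, plus strand: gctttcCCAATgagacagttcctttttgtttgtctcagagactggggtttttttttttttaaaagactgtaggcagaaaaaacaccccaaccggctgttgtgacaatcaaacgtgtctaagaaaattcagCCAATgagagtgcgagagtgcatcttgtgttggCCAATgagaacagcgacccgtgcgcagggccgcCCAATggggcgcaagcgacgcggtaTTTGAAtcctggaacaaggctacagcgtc
PLK1, chr16:23678639-23678888, plus strand: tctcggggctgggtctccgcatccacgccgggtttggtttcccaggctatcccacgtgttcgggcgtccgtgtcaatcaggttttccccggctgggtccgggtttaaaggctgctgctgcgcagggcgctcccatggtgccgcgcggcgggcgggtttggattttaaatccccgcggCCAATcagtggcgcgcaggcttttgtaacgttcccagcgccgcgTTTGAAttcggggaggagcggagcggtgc
LOX, chr5:122078260-122078509, minus strand: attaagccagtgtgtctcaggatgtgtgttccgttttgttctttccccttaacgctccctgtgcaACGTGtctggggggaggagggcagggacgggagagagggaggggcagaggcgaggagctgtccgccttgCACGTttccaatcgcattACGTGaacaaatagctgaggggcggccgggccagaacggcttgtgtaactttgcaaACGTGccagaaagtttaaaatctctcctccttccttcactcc
Searched on both strands in 27305 RefSeq promoters of this length, 1 per symbol, TTTGAA was found in 13.6%, CCAAT in 33% and ACGTG in 18.7%. In the promoters of 6879 genes compared here, the shares were 8.1%, 35% and 24.2%. A match describes the letters of the window and shows no binding. Of the 9250 genes compared, 6879 (under 80%) had a promoter by symbol, so no share of a motif among the genes that changed is given.

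Most of the secreted proteins of the hepatocyte were higher at day 21. Of 10 members compared, 8 rose, 5 of them at least 4-fold, 0 fell and 2 were inside the range, and the median difference was 2.75. The given markers ALB and AHSG are among those 5. SERPINA6 and AMBP, among the 8, passed the filter only through day 21, so the filter partly set this count and median. TF, the iron carrier transferrin, went from 64, 98 and 291 to 3865. SERPINA1, the protease inhibitor alpha-1 antitrypsin, went from 704, 1046 and 2640 to the top level of 18734. HPX, which binds free heme, went from 168, 198 and 348 to 2798. In each of these genes the reference days rose in order and day 21 stood clear of them, with log2 differences of 4.97 for TF, 3.91 for SERPINA1 and 3.62 for HPX. Without day 13 the difference of TF was 5.59. TTR (the thyroxine carrier) and AFP (the fetal counterpart of albumin) were at 18734 on days 9, 11, 13 and 21, and no change in them could be seen. Of the hepatocyte markers used to check the label of hepatocyte-like cells, SERPINA1, TF and the receptor ASGR1 rose. ASGR1 passed the filter on low values only through day 21. It could only be called risen, so its rise is no check of the label. TTR and APOA1 were inside the range, and CYP3A4, TAT and G6PC were not analysed here. ALB and AHSG rose too, but they were given as markers of this comparison, so their rise is no check of the label. AFP, a marker of the hepatoblast, remained at the top level, and other genes of hepatocytes, given further on, were lower at day 21.

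**Figure D2:**
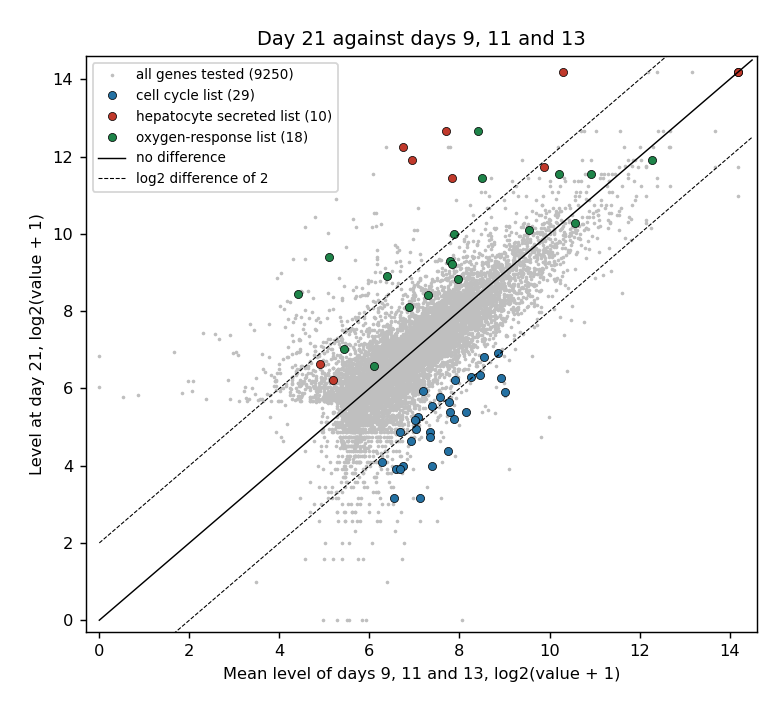
Level at day 21 against the mean level of days 9, 11 and 13, both as log2(value + 1), for the 9250 genes compared, with the members of 3 gene lists coloured and dashed lines at a difference of 2. All 29 cell cycle genes lie below the line of no difference, while 8 of 10 secreted hepatocyte genes and 16 of 18 oxygen-response genes were above the range.

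The apolipoproteins, which carry blood lipids, were listed together with LCAT and MTTP, and the list divided. Of 10 compared, 4 rose, 5 fell and 1 stayed inside, with a median difference of -0.23. LCAT is among the rises and MTTP among the falls. The falls of APOE (3861, 2796 and 2796, then 2428) and APOA2 (2636, 2426 and 2636, then 2164) are moves between nearby shared levels. APOC3, an inhibitor of lipoprotein lipase, had values of 20, 30 and 466 and then 2968, a difference of 5.46, which was 6.86 without day 13 and 4.63 without day 9. APOA4 went from 120, 180 and 492 to 4855, and APOB, the backbone of very low density lipoprotein, from 4856, 6494 and 4856 to 18734. APOC1 went the other way, from 1044, 1184 and 1384 to 228, which was 5.23-fold lower. MTTP, which loads lipid onto APOB, fell from 2802, 2028 and 1494 to 464. APOA1 stayed within its earlier range at 3428, 3860, 4855 and 3428.

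Acute-phase genes, which the interleukin 6 family switches on in hepatocytes, rose in 8 of 11 and fell in 3, with a median difference of 2.07. C3, CFB, HP and CEBPB reached 50 at day 21 and on none of days 9, 11 and 13. They could only be called risen, so the filter partly set these counts and this median. A2M, a broad protease inhibitor of plasma, had values of 56, 80 and 120 and then 4858, a 59.0-fold difference. FGG, the gamma chain of fibrinogen, went from 43, 41 and 66 to 1327, and C3, the central complement protein, from 16, 20 and 18 to 299. HP (haptoglobin) went from 6, 10 and 4 to 74, a low level whose fold is uncertain. In these genes the reference days were low, and day 21 lay above them by the definition of a rise. The fibrinogen chains moved apart, since FGB went from 4866, 4866 and 3868 to 3438 and FGA from 3428 on each day to 2796. These values of FGA and FGB are moves between nearby shared levels. ITIH4 also fell, from 94, 96 and 111 to 40.

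Of 15 genes of coagulation and complement, 10 rose, 1 fell and 4 were inside the range, with a median difference of 0.79. PLG, the precursor of the clot-dissolving enzyme plasmin, went from 10, 16 and 62 to 358. SERPIND1, a thrombin inhibitor, went from 55, 80 and 222 to 758, and KNG1, the precursor of bradykinin, from 10, 11 and 46 to 220. The complement proteases C1R and C1S reached 326 and 530, from at most 92 and 134. Prothrombin (F2) rose little, from 210, 265 and 390 to 405, and F10, F7, PROS1 and MASP1 stayed within their earlier values. Day 21 was the highest of the 10 days for each of the 10 genes that rose.

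The receptor and kinases of OSM signalling rose as well. Of 17 genes compared, 13 rose, 2 fell and 2 were inside, and the median difference was 0.81, but a single one rose 4-fold. That gene was OSMR, the specific receptor chain, with values of 18, 20 and 32 and then 171, 7.28-fold higher. OSMR, JAK2 and JUNB, among those 13, passed the filter only through day 21. They could only be called risen, so the filter partly set these counts and this median. IL6ST, the shared chain, went from 756, 1250 and 1158 to 2638, and STAT3 from 99, 142 and 189 to 396. LIFR, the other partner of IL6ST, fell throughout, from 1278, 918 and 488 to 376. JAK1, JAK2 and TYK2 each rose, JAK2 from 18, 26 and 22 to 70. Among the feedback inhibitors that STAT3 induces, SOCS3 reached 184 against 152, 134 and 102 on the reference days, a difference of 0.52. SOCS3 had been higher on days 5 and 7, at 342 and 228. Of the other SOCS genes listed, SOCS2 went from 80, 56 and 59 to 84. SOCS1, too low to be compared, went from 20, 14 and 18 to 5.

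Transcription factors that define hepatic cells ran against the secreted proteins. Of 17 compared, 1 rose, 11 fell and 5 were inside the range, and the median difference was -0.90. HNF4A, the nuclear receptor at the centre of the hepatic network, had values of 1021, 918 and 838 and then 470. FOXA2, a pioneer factor of endoderm, went from 210, 208 and 144 to 48. Both were falling over the reference days and continued below them, with differences of -0.97 for HNF4A and -1.92 for FOXA2. FOXA3 fell from 48, 50 and 44 to 10. CEBPA (130, 219, 266 and 160) and RXRA (412, 470, 460 and 450) stayed inside. The member that rose was PPARA, a receptor for fatty acids, from 58, 90 and 102 to 248.

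**Figure D3:**
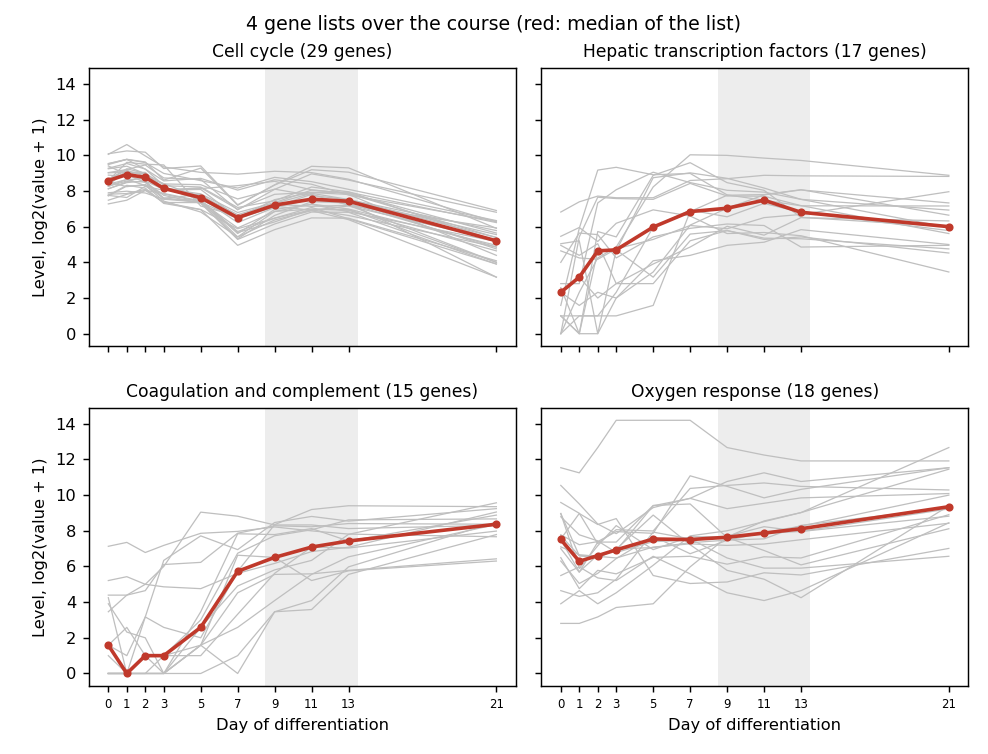
Levels as log2(value + 1) on the 10 days for 4 gene lists, with a grey line for each gene, the median of the list in red and the reference days shaded. The median of the cell cycle list goes from 7.43 at day 13 to 5.21 at day 21 and that of the hepatic factors from 6.81 to 6.00, while coagulation and complement go from 7.43 to 8.37 and the oxygen-response list from 8.11 to 9.35.

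Uptake and metabolism gave a mixed picture. Of 10 transporters and receptors of the hepatocyte surface, 6 rose, 1 fell and 3 were inside. SLC10A1 (NTCP), which takes bile acids up from blood, went from 6, 16 and 36 to 508, and ASGR1, which clears proteins that have lost sialic acid, from 20, 20 and 43 to 320. SLC10A1 and ASGR1 passed the filter only through day 21 and could only be called risen. ABCC2, which exports bilirubin conjugates into bile, was lower at 96 against 176, 161 and 106. Of 15 genes of drug metabolism, 8 rose and 3 fell, with a median of 0.52. GSTA1, a glutathione transferase abundant in adult liver, stood apart with 38, 13 and 24 and then 650. UGT2B7, a glucuronosyltransferase, went from 24, 13 and 29 to 124. The GSTA genes are close paralogs whose reads may be shared, so the value of GSTA1 is uncertain on this account.

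In amino acid metabolism 5 of 15 genes rose and 6 fell. CPS1, the first enzyme of the urea cycle, had values of 74, 66 and 89 and then 1217, 15.9-fold higher. ASS1 and ASL, which act later in the cycle, rose by 1.03 and 1.00. MAT1A, the adult form of methionine adenosyltransferase, went from 12, 9 and 14 to 90. BHMT, which remethylates homocysteine, fell from 46, 52 and 24 to 8. SLC2A2, the glucose transporter of adult hepatocytes, was listed at 54, 37 and 43 on days 9, 11 and 13 and at 0 at day 21.

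Genes for lipid synthesis fell in 12 of 22 and rose in 6, with a median difference of -0.29. HMGCS1, an early enzyme of cholesterol synthesis, went from 2023, 2166 and 1490 to 780, FASN, the fatty acid synthase, from 1638, 1554 and 1087 to 768, and ACLY, which supplies their acetyl groups, from 1436, 1326 and 1045 to 676. For each of these genes day 21 was the lowest of the 10 days. Of 14 genes of fat oxidation, storage and ketone synthesis, 6 rose, 3 fell and 5 were inside, with a median of 0.21. PLIN2, which coats lipid droplets, went from 92, 88 and 116 to 428 and CD36, a fatty acid receptor, from 15, 22 and 28 to 128. CIDEB, a lipid droplet protein (70, 58 and 70, then 61), and FABP1, a fatty acid binding protein (84, 82 and 110, then 108), stayed inside. Of 22 subunits of oxidative phosphorylation, 16 fell and 3 rose, all by less than 1 on the log2 scale, and the median difference was -0.40.

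Cell division genes fell as a block. Of 29 genes compared, 29 fell and 19 of them at least 4-fold, with a median difference of -2.27, and day 21 was the lowest of the 10 days for all 29. CCNA2 (cyclin A2) had values of 98, 168 and 160 and then 8, 15.5-fold lower. PLK1, a kinase of mitosis, went from 138, 224 and 146 to 15, and TOP2A, which untangles DNA, from 324, 668 and 628 to 59. CCNB2 (cyclin B2) went from 76, 125 and 124 to 15. The promoters of CCNB2 and PLK1 are among those printed above. Genes of DNA replication were part of the block, MCM7 going from 550, 522 and 404 to 76. MKI67, the common marker of dividing cells, was reduced less, from 272, 497 and 390 to 111. That the 3 reference days did not overlap with day 21 for any of the 29 genes follows from the definition of a fall. The smallest difference, that of PCNA, was -1.27.

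Genes linked to early development and to the earlier growth factors were lower too. Of 6 pluripotency genes compared, 6 fell, led by LIN28A, an RNA-binding protein that blocks let-7 maturation, which went from 1437, 1186 and 606 to 37. LIN28A was also among the 15 largest falls, as was DLGAP5, a spindle protein, at 78, 134, 118 and 3. Of 23 genes of the FGF, HGF, BMP and TGF pathways, 13 fell and 6 rose. The ERK feedback gene SPRY2 went from 341, 240 and 157 to 47, the BMP target ID1 from 336, 210 and 91 to 45 and the receptor FGFR1 from 2024, 853 and 346 to 220. All 3 were descending before day 21. MET, the receptor of HGF, rose from 26, 26 and 16 to 69 and KLB, the coreceptor of FGF19 and FGF21, from 120, 118 and 124 to 459.

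Fetal liver genes did not move together. Of 15 compared, 4 rose, 7 fell and 4 were inside the range, with a median of -0.34. DLK1, a surface protein used to sort hepatoblasts, had values of 162, 190 and 310 and then 4855, and MEG3, a noncoding RNA of the same imprinted cluster, 36, 43 and 39 and then 460. Both were at their highest of the 10 days at day 21. HMGA1, a chromatin protein of embryonic cells, fell from 1554, 1488 and 1248 to 218. GPC3 went from 6493 on each reference day to 4855, neighbouring shared levels, and AFP and H19 could not be read at the top level.

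Genes that respond to low oxygen rose in 16 of 18, with 1 below and 1 inside the range and a median difference of 1.36. EGLN3 and PDK1, among those 16, reached 50 at day 21 and on none of days 9, 11 and 13. LOX, which crosslinks collagen, had values of 200, 374 and 518 and then 6496. ENO2, a glycolytic enolase, went from 54, 38 and 18 to 675, and EGLN3, an oxygen-sensing prolyl hydroxylase, from 22, 16 and 24 to 348. NDRG1 went from 255, 364 and 518 to 2800. Day 21 was the highest of the 10 days for 13 of these 18 genes, though ENO2 had been at 500 on day 0. Among glycolytic genes outside this list, PGK1 rose from 1185, 1130 and 1185 to 4858 and LDHA from 484, 589 and 695 to 2165. Both had been higher on day 0, at 6496 and 2798. Glucocorticoid-induced genes rose in 9 of 11, with a median of 1.80. FKBP5 and SLC19A3 reached 50 at day 21 and on none of days 9, 11 and 13, so the filter partly set this count and median. The member that fell was ERRFI1, from 1044, 1108 and 1156 to 589. MT2A (1, 0 and 8, then 10), MT1X (0 on each reference day, then 1) and GADD45B (26, 33 and 42, then 42) were too low to be compared. FKBP5, a chaperone partner of the glucocorticoid receptor, went from 24, 20 and 28 to 364, near its 348 on day 3. TSC22D3 (GILZ) went from 50, 63 and 74 to 446, and SGK1, a kinase of salt balance, from 98, 68 and 53 to 590. Day 21 was the highest of the 10 days for 8 of these 11 genes. Oxygen and the steroid content of the media were not measured, and the part of either in these values was not tested.

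The return of epithelial features was examined because the study follows the passage between epithelial and mesenchymal states. Of 27 epithelial genes compared, 9 rose, 13 fell and 5 were inside, with a median of -0.17. CDH1 (E-cadherin), the adhesion molecule of epithelia, had values of 237, 316 and 407 and then 1089, while CDH2 (N-cadherin), also a cadherin of hepatocytes, had 2638 on each reference day and 527 at day 21. The tight junction gene CLDN1 went from 15, 28 and 106 to 264. Keratins KRT8, KRT18 and KRT19 fell, KRT8 from the top level of 18734 on each reference day to 2024 and KRT18 from 3860, 4855 and 4855 to 1248. TJP1 and PKP2, parts of junctions, fell by 0.89 and 1.39. Of 16 mesenchymal genes, 6 rose, 3 fell and 7 were inside, with FN1 and SPARC at 18734 on all 4 days. VIM, the intermediate filament of mesenchymal cells, went from 2800, 3865 and 4862 to 2641, just below its earlier range.

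**Figure D4:**
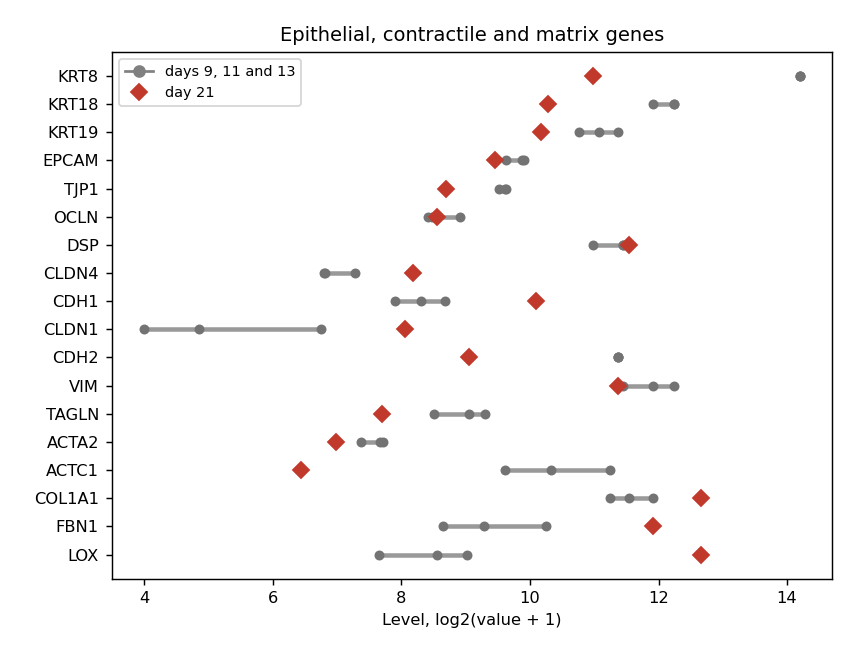
Levels as log2(value + 1) of 18 epithelial, contractile and matrix genes, chosen with their values known, on days 9, 11 and 13 (grey, joined by a bar) and at day 21 (red). CDH1, CLDN1, FBN1 and LOX lie to the right of their earlier days, and KRT8, CDH2 and ACTC1 to the left.

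Contractile genes and matrix genes went different ways. Of 11 contractile genes compared, 8 fell and 2 rose, with a median of -0.46, and ACTC1, an actin of heart and embryonic muscle, went from 2434, 1280 and 781 to 86. Of 22 genes of the matrix and of stromal cells, 13 rose, 4 fell and 5 were inside, with a median of 1.06. FBN1, the main protein of microfibrils, went from 402, 620 and 1214 to 3863, and COL5A1, a fibrillar collagen, from 2426, 6493 and 6493 to 18734. DCN went from 80, 320 and 2802 to 2802, the same shared level on day 13 as at day 21. The summed value of the 25 stromal genes was 29585, 38326 and 59190 on the reference days and 88912 at day 21, and their part in the other differences was not tested.

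Markers of other cell types were divided for bile duct and blood vessel cells and mostly higher for macrophages. Of 13 cholangiocyte genes, 5 rose, 4 fell and 4 were inside. SPP1 and the water channel AQP1 (308, 779 and 1638, then 2796) rose, while KRT19 (2636, 2164 and 1734, then 1157) fell and KRT7 stayed inside (47, 66 and 22, then 24). Of 5 macrophage genes compared, 4 rose and 1 fell, with a median difference of 3.47. PTPRC, LYZ and LAPTM5 reached 50 at day 21 and on none of days 9, 11 and 13. They were compared only because of their day 21 values, so the filter partly set this median and these counts. PTPRC (CD45), a surface protein of white blood cells, was listed at 0 on days 9, 11 and 13 and at 65 at day 21. That value is low, and PTPRC had been listed at 39, 12 and 18 on days 0, 1 and 2. CD68 went from 16, 14 and 50 to 259, and LYZ (lysozyme) from 6, 5 and 24 to 201. LCP1, also a gene of white blood cells, went from 1107, 1248 and 384 to 190. The sum of the 6 macrophage genes with a value was 1175, 1309 and 509 on the reference days and 855 at day 21, most of it on the reference days being LCP1. Without LCP1, a choice made after its values were seen, the sum of the other 5 was 68, 61 and 125 and then 665. A further 22 genes of the list were not analysed here. Of 12 endothelial genes, 4 rose and 4 fell, their sum being 1368, 1749 and 2744 and then 2367. Red blood cell genes were high at day 13 (sum 469, 1513 and 6314, then 3465), and 8 of 10 were inside the range at day 21. The part of these cells in the rise of the hepatocyte genes was not tested.

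Most of the large rises went beyond any earlier day. Of the 246 genes that rose at least 4-fold, day 21 was the highest of the 10 days for 216 (87.8%), and 30 had been as high or higher before day 9. Among all genes above the range the share was 65.3%. In 102 of them the level had already gone up by at least 1 on the log2 scale from day 9 to day 13, in 22 it had gone down by as much, and in 122 it had done neither. TF and PLG are examples of the first kind, SPP1 lay just under the limit for the second, and CPS1 and C3 were flat until day 13. Leaving out day 13 moved the fold by more than 1.5 times for 24 of 407 named genes and list members outside the range, leaving out day 9 for 19 and leaving out day 11 for 2. CXCR4, a chemokine receptor of endoderm, is an example of a return, with 568 on day 3, then 8, 4 and 0 on days 9, 11 and 13 and 58 at day 21. Of the 198 genes that fell 4-fold, day 21 was the lowest of the 10 days for 139 (70.2%), against 62.1% of all genes below the range, 54 had already gone down by at least 1 between days 9 and 13, and 7 were listed at 0 at day 21.

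The remaining genes of the 15 largest rises were of several kinds. ZG16, a secretory granule protein of gut and pancreas, went from 16, 29 and 40 to 1388. COL14A1 and COL16A1, collagens that bind to fibrils, went from 18, 16 and 41 to 1158 and from 8, 22 and 37 to 650, and LAMA2, a laminin chain, from 0, 6 and 16 to 171. SLC34A2 (2, 0 and 0, then 54), SCG2 (0, 5 and 0, then 56) and RP5-899B16.1 (0, 0 and 30, then 123) rest on low values. Among the 15 largest falls, APLNR, the apelin receptor, went from 744, 470 and 482 to 14, EPHA4, an ephrin receptor, from 1156, 1184 and 512 to 26, IGFBP6 from 366, 270 and 57 to 5, and LFNG, which modifies Notch, from 214, 136 and 90 to 5. HPDL (114, 76 and 65, then 1) and SPTSSB (155, 119 and 61, then 2) ended close to 0. Listed at 0 at day 21 were RP11-366M4.3 (744, 395 and 63 before), FEM1A (69, 53 and 58), ANKRD20A2 (46, 43 and 90), MLIP (30, 44 and 72), INA (60, 50 and 18) and HTR1B (42, 50 and 13).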

How the data were processed

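RNA of H1 cells was sequenced on 10 days with 1 library per day, and days 9, 11, 13 and 21 were used, with the others for context. The authors aligned reads with Bowtie2 2.2.0 and RSEM 1.2.17 per the labels and corrected the estimates for GC content (EDASeq), and deposited 1 table of 12125 genes. The deposited values are scores, whole numbers of nearly the same distribution in each library, and not counts. They carry no information on the depth of single libraries, so no interval was computed. The 3 symbols that occur more than once in the table are not named here.

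Differences were taken on log2(value + 1) with Python 3.11.15, numpy 2.4.6 and pandas 2.3.3, for genes with a largest value of at least 50, and plots were drawn with matplotlib 3.10.9. The code was tested on simulated data. No test between days was made. Genes named are the 4 markers, the 15 largest rises and falls, and members of 35 gene lists by size of difference or because the list is known for them. The members and lists were chosen with earlier results of these data known. Alternatives were other pseudocounts, filters, scalings, limits and reference days. Promoters were read from RefSeq (GRCh38.p14). Some members of the lists are counted but their own values are left out.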

Additional observations from a re-analysis of the deposited data

How the results depend on the processing

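With 1 library per day, the spread among days 9, 11 and 13 holds both technical spread and changes over time, and no result has an error of its own. No paired analysis was possible because each day has 1 library, and the shared replicate number only marks it as the single one. Without a filter on low values, 408 genes fell 4-fold (307 to the lowest of the 10 days) and 309 rose (233 to the highest), so that rises were 43.1% of the 4-fold changes, against 55.4% with it. With a largest value of at least 100, 124 genes fell, 89 of them to the lowest. With at least 200, 1287 genes were above and 1620 below the range, 139 rose 4-fold (128 to the highest of the 10 days) and 65 fell 4-fold (38 to the lowest). A limit of 1 on the log2 scale gave 881 rises and 989 falls, and a limit of 3 gave 85 and 61. Leaving out 1 of the reference days gave 3365 to 3653 genes above the range, 4145 to 4472 below, 209 to 304 rises and 191 to 249 falls of 4-fold, 179 to 269 rises to the highest and 134 to 165 falls to the lowest of the 10 days. With the median of ratios, 52.5% of the genes outside the range were above it, against 44.6%, and the difference of ATF3 went from -0.11 to 0.0. Of 18 lists with a median difference of at least 0.5 in either direction, the red blood cell list changed sign, from 0.75 to -1.13 with day 13 alone as the reference. Over all alternatives, 316 of 507 named genes and 18 of 35 list medians moved at least once by more than the standard deviation of the reference days or, for genes, into their range, in 385 and 32 values, against 5385 and 386 values that did not.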

Other observations

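Some genes of the intestine were higher at day 21. Of 6 compared, 4 were above the range, 1 below and 1 inside. GUCY2C and SI, among those 4, passed the filter on low values only through day 21. They could only be called risen, so the filter partly set these counts. The same filter left out LGR5 and SOX2, which were low on the reference days and at day 21. GUCY2C, the receptor of the gut hormone guanylin, had values of 4, 10 and 9 on days 9, 11 and 13 and 122 at day 21, and SI (sucrase-isomaltase) had 7, 28 and 35 and then 96. VIL1 (villin), a protein of the brush border, went from 151, 161 and 134 to 374. CDX2, the intestinal master factor, stayed inside the range at 136, 138, 197 and 162, and ISX went from 72, 72 and 86 to 22. MEP1A, a protease of the intestinal and kidney brush border chosen after its values were seen, went from 5, 34 and 180 to 1044. The sum of the 8 intestinal and stomach genes of the list was 494, 592 and 953 on the reference days and 5631 at day 21, of which APOA4 alone, also counted with the apolipoproteins, made up 4855.

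Genes chosen after their values were seen add other kinds. MAOA, which degrades amines, went from 5 on each reference day to 169. NPPB, a natriuretic peptide best known from the heart, went from 82, 41 and 40 to 1156. PLAT (tissue plasminogen activator) went from 46, 44 and 154 to 1490 and F3 (tissue factor) from 68, 63 and 80 to 1185. HIF3A, an inhibitory subunit of the hypoxia-inducible factors, went from 8, 18 and 34 to 306. Lower at day 21 were MYCN (140, 96 and 60, then 4), NODAL (52, 39 and 22, then 2), NTS, the gut peptide neurotensin (178, 166 and 64, then 8), NQO1, a quinone reductase (326, 291 and 78, then 16), and ALPL, an alkaline phosphatase of stem cells (184, 69 and 28, then 5). MYCN, NODAL, NTS, NQO1 and ALPL had each been falling from day 9 to day 13.

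Of 11 genes of insulin-like growth factor signalling, 5 rose, 2 fell and 4 were inside the range. IGFBP5 went from 155, 58 and 31 to 1158, while IGFBP4 went from 518, 660 and 781 to 370 and IGF2 stayed inside at 2796, 6494, 6494 and 3861. Antigen presentation genes rose in part, with B2M at 334, 354 and 612 and then 982 and TAPBP at 63, 68 and 102 and then 270. HLA-F went from 53, 47 and 62 to 28, its lowest value of the 10 days. Among lysosomal genes, LIPA, the acid lipase, went from 72, 140 and 192 to 936.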
